A study of Mus musculus with 7 samples.

Results

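The genes described here are 36 mouse genes of the ATF4 stress response and of amino acid supply: stress regulators, secreted stress factors, enzymes that make serine, asparagine, proline and sulphur amino acids, amino acid transporters and tRNA synthetases. They were chosen by name, and all 36 were found among the 52459 gene names of the count table and among the 13367 genes with enough counts to be tested. Bulk RNA sequencing measured them in primary articular chondrocytes, the cells of joint cartilage, taken from the femoral head of mice and grown in high-glucose medium with fetal bovine serum. Cultures received vehicle (2 libraries, replicates 1 and 2), TGFβ1 at 5 ng/ml (2 libraries, replicates 1 and 3) or BMP2 at 100 ng/ml (3 libraries, replicates 1, 2 and 3), each for 24 h. The labels give no genotype, strain, sex or age. They do not say whether replicates are separate animals or cultures, so every p-value here measures only how far these samples spread, and that spread may be technical.

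ATF4 is a transcription factor whose messenger RNA is translated more when the initiation factor eIF2α is phosphorylated, which happens when amino acids run short, unfolded protein collects in the endoplasmic reticulum or haem is scarce. It binds DNA as a dimer with other bZIP proteins such as the C/EBP factors and raises genes for amino acid uptake, amino acid synthesis and tRNA charging, along with further stress regulators. In cartilage, where cells secrete large amounts of collagen, ATF4 and its partner CHOP are known for their part in growth plate chondrocytes. TGFβ1 and BMP2 belong to the same ligand family and signal mainly through SMAD2/3 and SMAD1/5. Because ATF4 is controlled by translation, its RNA level does not report its protein level or activity, neither of which was measured.

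The letters that ATF4 and C/EBP dimers are known to bind, TGATGNAA on either strand, were searched in the RefSeq promoter windows of build GRCm38.p6, which run from 250 bases before to 50 bases after each start. A window was matched for 31 of the 36 genes. TGATGNAA was found in 12 of the 31 genes (38.7%) and in 1219 of 27025 genes with a window (4.5%), and its form with C at the open position, TGATGCAA, in 9 of 31 (29.0%) and in 279 of 27025 (1.0%). The TGATGCAA matches are part of the TGATGNAA matches. Many of these genes are known as ATF4 targets because of such elements, so the share describes the list and is no result of the treatments. The 28 bases around TGATGCAA in 8 of these 9 genes, with those of Asns, whose match is another form of TGATGNAA and which is described under BMP2, are shown so that the matched letters and their surroundings can be compared; 19 of the 31 genes had no match. Capitals mark the matched letters, and each line reads 5′ to 3′ on the strand that carries them.
Atf3: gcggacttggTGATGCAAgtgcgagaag
Nupr1: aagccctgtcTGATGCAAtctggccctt
Chac1: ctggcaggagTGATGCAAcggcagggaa
Fgf21: cctggacggaTGATGCAAtgggggggtc
Vldlr: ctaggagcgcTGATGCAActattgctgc
Pycr1: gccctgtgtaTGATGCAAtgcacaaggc
Slc7a11, first: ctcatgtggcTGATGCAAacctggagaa
Slc7a11, second: ggctgcatgaTGATGCAAattctccagg
Slc1a4: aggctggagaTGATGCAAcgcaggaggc
Asns: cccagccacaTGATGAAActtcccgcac

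In build GRCm38.p6 these windows lie at chr1:191183426-191183453 (plus strand) for Atf3, chr7:126625563-126625590 (plus) for Nupr1, chr2:119351039-119351066 (minus) for Chac1 and chr7:45615612-45615639 (plus) for Fgf21. Those of Vldlr and Pycr1 lie at chr19:27216810-27216837 (minus) and chr11:120643834-120643861 (minus). The pair at Slc7a11 lies at chr3:50443662-50443689 (minus) and chr3:50443643-50443670 (plus), and its windows overlap. Those of Slc1a4 and Asns lie at chr11:20332700-20332727 (plus) and chr6:7693215-7693242 (minus). Along the strand of the gene, the match began between 4 bases (Slc1a4) and 200 bases (Vldlr) before the start. The match of Slc1a4 ran across the start. A match is a description of these letters, not evidence of binding.

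The libraries differed in ways that touch these genes. Total counts were 6885056 and 7387051 with vehicle, 18047765 and 16271793 with TGFβ1, and 10686885, 6747997 and 9796199 with BMP2. The TGFβ1 libraries held more reads of short transcripts: among 1148 tested genes with a principal transcript of up to 1000 nt the median log2 fold change of TGFβ1 against vehicle was 2.75, and among 4137 genes above 4000 nt it was −0.38, while the same medians for BMP2 were 0.02 and −0.04. Values that involve TGFβ1 therefore carry, where it matters, a second value, from a fit with a per-library offset for transcript length and GC content, called the length offset. Of the 36 genes, 3 have a principal transcript of up to 1000 nt: Nupr1 (829 nt), Ddit3 (890 nt) and Fgf21 (951 nt). TGFβ1 treatment and this composition cannot be told apart by the design. Over all genes the libraries of a group differed by more than counting noise, which would give a chi-square per gene near 1: it was 4.5 between the vehicle libraries, 41.8 between the TGFβ1 libraries, 13.6 and 17.8 between BMP2 replicate 1 and the others, and 1.84 between BMP2 replicates 2 and 3. The excess over 1 grows with depth, and the TGFβ1 libraries were the deepest, so these values do not rank the spread of the groups. Among the 36 genes, BMP2 replicate 1 lay away from replicates 2 and 3 for Nars, Sars, Slc7a5, Slc1a4, Mthfd2, Nupr1, Eprs and Slc1a5, among others. The cells carried chondrocyte markers (8 of 8 tested) at a summed 47905 and 48231 CPM with vehicle, 32401 and 38336 with TGFβ1 and 41914 to 48786 with BMP2. Of these 8, 5 fell with TGFβ1, where 25.8% of all tested genes fell. With BMP2 1 of the 8 rose and 1 fell, where 5.33% of all tested genes rose and 6.15% fell. The summed leukocyte markers (6 genes) stood at 13.5 to 28.8 CPM in the 7 libraries, endothelium (4 genes) at 0.12 to 1.79, fibroblast and synovium (4 genes) at 6.35 to 12.3, osteoclast (3 genes, mostly Ctsk) at 88.8 to 141, skeletal muscle (3 genes) at 0 to 1.2 and erythroid (1 of 3 genes in the table) at 0 to 0.133. Adipocyte markers (3 genes, nearly all Fabp4) stood at 4.68 and 8.37 with vehicle, 56.9 and 49.9 with TGFβ1 and 8.58 to 17.8 with BMP2. Cd3e, Cdh5 and Calcr were at 0 in every library. The part of these differences in the results was not tested. In bulk RNA, fewer cells of a type and less RNA per cell cannot be told apart.

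Levels are given as CPM, counts scaled to a common library size, and differences as log2 fold change with its standard error (SE). A gene is said to have risen or fallen where the adjusted p of the edgeR quasi-likelihood test was under 0.05, adjusted over all tested genes. Statements that libraries of different groups did not overlap describe the values that the test used and add no support to a call. The share of all tested genes without overlap was not counted. Under vehicle the 36 genes together held 0.673% and 0.728% of the counts, with TGFβ1 1.2% and 1.14%, and with BMP2 0.886%, 0.816% and 0.779%. The TGFβ1 share was carried largely by Nupr1. Per kilobase of principal transcript, the highest vehicle means were those of Nupr1 (470 CPM per kb), Atf4 (249), Ddit3 (237), Gars (172) and Mthfd2 (158). Atf4 at 266 and 232 and Ddit3 at 229 and 246 CPM per kb overlapped. The lowest were Fgf21 (14), Phgdh (12.9), Gdf15 (11.9), Slc7a11 (1.92) and Cbs (0.25).

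**Figure D1:**
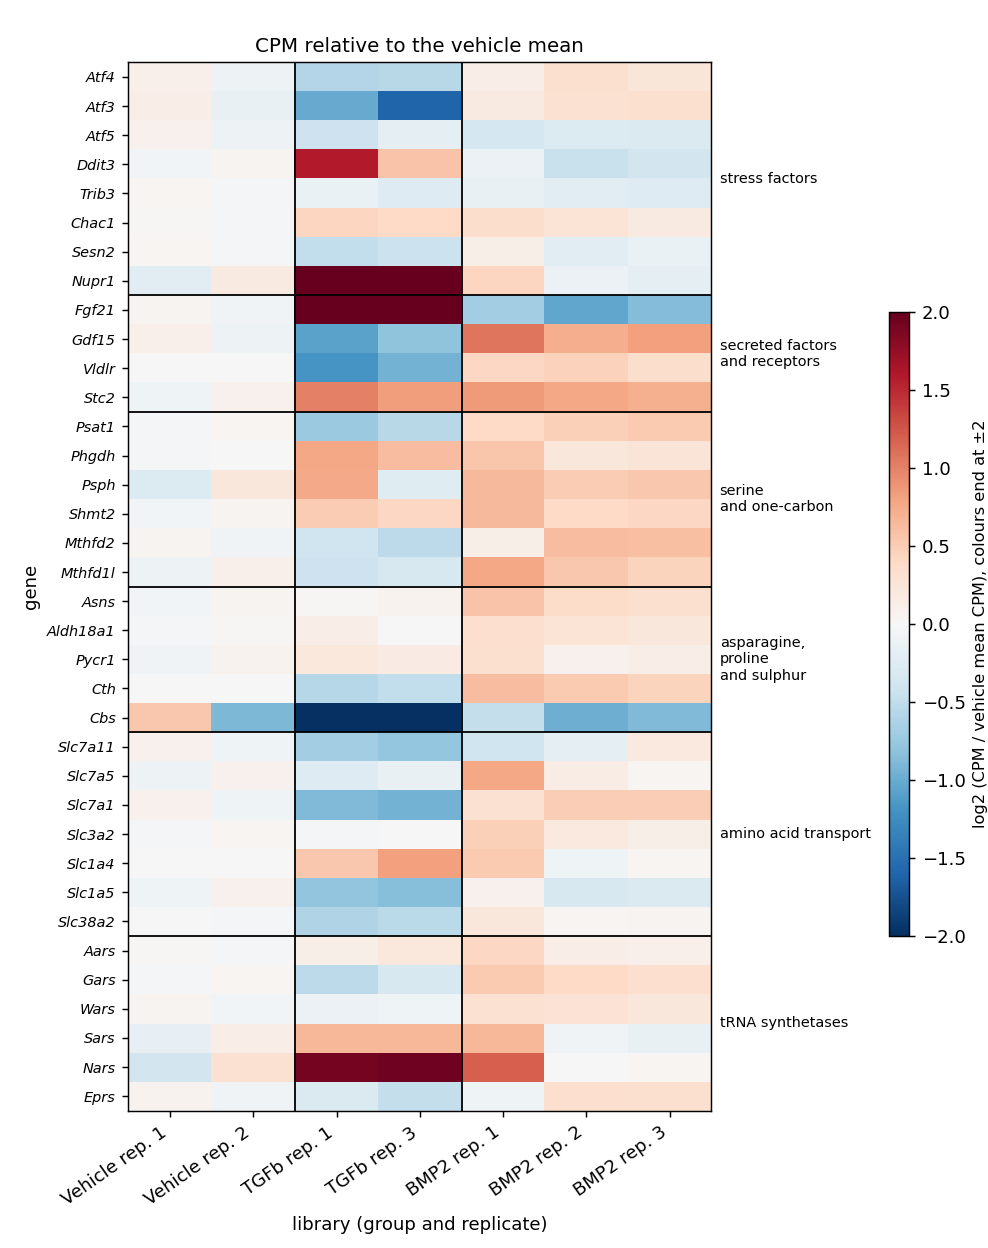
Level of each of the 36 genes (rows, grouped by role) in each of the 7 libraries (columns), as the log2 ratio of its CPM to the mean of both vehicle libraries. Colours end at 2 and −2, and Nupr1, Fgf21 and Cbs go past them with TGFβ1; most rows show the TGFβ1 and BMP2 blocks in different colours.

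With TGFβ1 the list split: of the 36 genes 10 rose and 15 fell against vehicle, and 11 did not pass the test. Of all 13367 tested genes 30.4% rose and 25.8% fell, 56.2% in all, which is the background for the 25 of 36 on the list. The median log2 fold change was −0.20 over the list and −0.02 over all tested genes. With the length offset 7 rose and 16 fell, median −0.29, where 25.3% of 13229 genes rose and 23.7% fell (49.0% in all). Of the 10 that rose 7 were still called with it, of the 15 that fell 12 were, and Ddit3 and Chac1 changed direction.

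Atf4 itself fell. Its level was 458 and 400 CPM under vehicle and 286 and 292 with TGFβ1, so the groups did not overlap. The log2 fold change was −0.57 (SE 0.13, edgeR adjusted p = 0.00409), and −0.87 with the length offset. Atf3, a bZIP stress factor induced downstream of ATF4, fell further, from 43.5 and 36.1 CPM to 19.8 and 13.1, a log2 fold change of −1.27 (SE 0.19) without and −1.47 with the length offset. Atf4 lies at chr15:80255184-80257541 and Atf3 at chr1:191170296-191218039 (mm10), and neither overlaps another annotated exon.

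Nupr1, a small chromatin-associated stress protein, gave the largest rise of the list. It stood at 337 and 443 CPM with vehicle and at 9068 and 7977 with TGFβ1. The log2 fold change was 4.45 (SE 0.25, edgeR adjusted p = 1.51e-07) without the length offset and 1.65 (SE 0.20, edgeR adjusted p = 4.98e-05) with it. With an offset made from the gene lengths in the deposited table it was 4.21. The principal transcript of Nupr1 is 829 nt, and its annotated exons together cover 2514 nt. Nupr1 rose in all of these fits, and the size of the rise depended on the length given to its transcript.

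Ddit3, which encodes CHOP, a pro-apoptotic partner of ATF4, had no stable direction. It stood at 204 and 219 CPM with vehicle and at 631 and 315 with TGFβ1, with both TGFβ1 libraries above vehicle and far from each other. Its principal transcript is 890 nt, and its annotated exons together cover 1713 nt. The log2 fold change was 1.17 (SE 0.26) without the length offset and −1.46 (SE 0.16) with it, called both times in opposite directions. With the offset made from the deposited lengths it was 0.58. Without TGFβ1 replicate 1 it was 0.58 and without TGFβ1 replicate 3 it was 1.59. Exons of Ddit3 (chr10:127290774-127296288) overlap other annotated genes over 6.1% of their length on its strand and 4.7% on the other, and the strand setting of the counting is not known here.

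Among the other stress regulators, Sesn2, which restrains mTORC1 when leucine is short, fell by 0.46 on the log2 scale (SE 0.14). Chac1, which degrades glutathione, rose by 0.41 (SE 0.12) without the length offset and stood at −0.05 with it, not called. Atf5, a bZIP factor of mitochondrial stress, and Trib3, a pseudokinase that restrains ATF4, were not called at −0.29 and −0.20, and fell with the length offset at −0.60 and −0.55. Of the 8 stress regulators 3 were called up and 3 down; the length offset left 1 up (Nupr1) and 6 down.

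**Figure D2:**
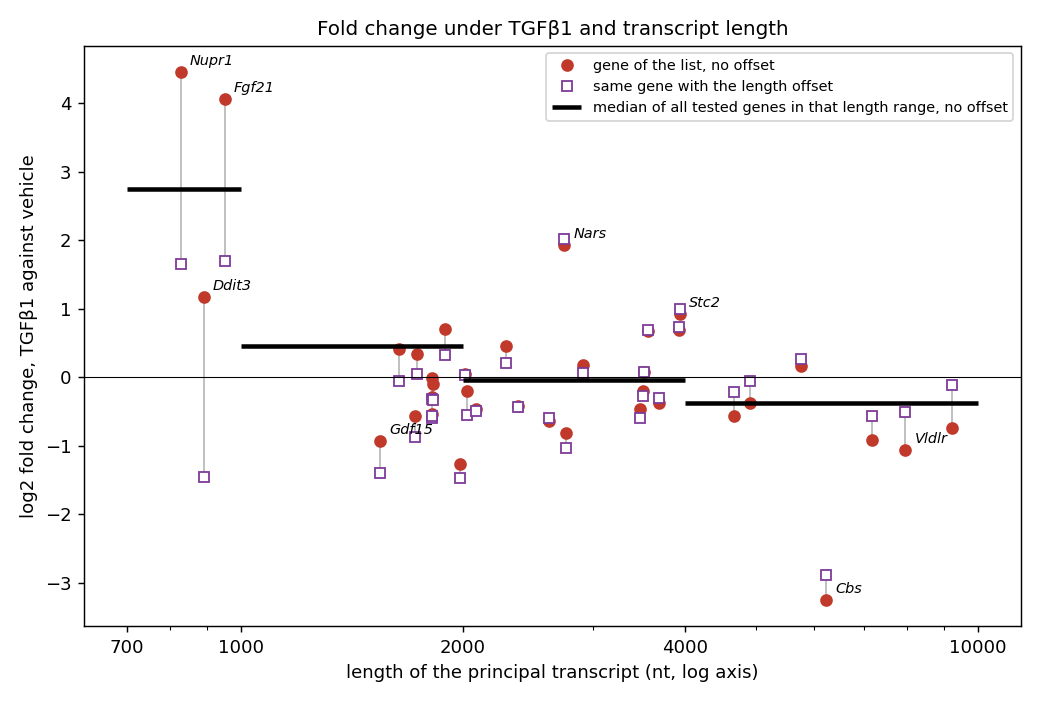
Log2 fold change of TGFβ1 against vehicle (vertical axis) against principal transcript length (horizontal log axis, nt) for the 36 genes, without the length offset (filled circles) and with it (open squares, joined by a line), and the median of all tested genes in 4 length ranges (bars). Ddit3 moves from 1.17 to −1.46, while Nars (1.93 and 2.01) and Stc2 (0.92 and 1.00) stay near their first value.

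The secreted factors went both ways. Fgf21, an endocrine FGF released under amino acid and mitochondrial stress, stood at 13.9 and 12.8 CPM with vehicle and at 338 and 106 with TGFβ1. Its log2 fold change was 4.06 (SE 0.45) without the length offset, 1.70 (SE 0.29) with it and 3.00 without TGFβ1 replicate 1, in which it was highest. Gdf15, a secreted stress signal of the TGFβ superfamily, fell from 19.7 and 17.2 CPM to 8.75 and 10.5, a log2 fold change of −0.93 (SE 0.17), and of −1.40 with the length offset.

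Stc2, a secreted glycoprotein of calcium and IGF control, rose from 62.3 and 70.6 CPM to 134 and 118, and its value hardly moved with the length offset (0.92 without, 1.00 with it, SE 0.13 and 0.12). Vldlr, a lipoprotein receptor that ATF4 induces, fell from 218 CPM in both vehicle libraries to 95.9 and 113, a log2 fold change of −1.06 without and −0.51 with the length offset. All 4 genes of this group changed, 2 in each direction, in both fits.

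Serine and one-carbon enzymes did not move as one. Psat1, the second enzyme of serine synthesis, fell from 108 and 114 CPM to 66.7 and 75.4 (log2 fold change −0.64, SE 0.12). Phgdh, the first and committed enzyme, rose from 24.1 and 24.6 to 41.5 and 37.6 (0.70, SE 0.14, and 0.33 with the length offset). Psph, the last, stood at 74.7 and 106 with vehicle and at 153 and 76.6 with TGFβ1, groups that overlap, and was not called. Enzymes of one pathway thus stood on opposite sides of 0.

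Of the mitochondrial folate enzymes, Shmt2, which splits serine to glycine, rose by 0.46 without the length offset and stood at 0.20, not called, with it. Mthfd2 and Mthfd1l, which carry the resulting one-carbon unit to formate, fell by 0.46 and by 0.37 on the log2 scale (SE 0.18 and 0.14), at adjusted p values of 0.046 and 0.0489 in edgeR. Mthfd2 stayed called with the length offset at −0.50 and Mthfd1l did not at −0.31.

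Asparagine and proline synthesis stayed near vehicle. Asns, asparagine synthetase, stood at 212 and 230 CPM with vehicle and at 225 and 233 with TGFβ1, a log2 fold change of 0.05 with a 95% interval of −0.24 to 0.35. Aldh18a1 and Pycr1, the first and last enzymes of proline synthesis from glutamate, gave 0.07 and 0.18. None of these 3 genes passed the test, with or without the length offset.

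The transsulphuration enzymes fell. Cth, cystathionine gamma-lyase, went from 49.5 and 49.9 CPM to 33.3 and 35.2, a log2 fold change of −0.54 (SE 0.12). Cbs, cystathionine beta-synthase, had 17 and 7 counts in the vehicle libraries against 1 and 3 in the deeper TGFβ1 libraries. The ratio of its count rates, TGFβ1 to vehicle, was 0.0989 with an exact 95% interval of 0.0249 to 0.288 that covers counting error only. Cbs sat near the limit of detection in every library, and its fitted value of −3.25 fell short of the threshold without vehicle replicate 1 (−2.44).

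Most transporters fell or stayed: 4 of the 7 fell without the length offset and 2 with it. Slc7a1, the cationic amino acid carrier, went from 206 and 183 CPM to 106 and 101 (log2 fold change −0.91, SE 0.13, and −0.57 with the length offset). Slc1a5, the ASCT2 carrier of glutamine and neutral amino acids, went from 226 and 257 to 139 and 134 (−0.82, SE 0.16, and −1.03 with the length offset). Slc38a2, the amino acid sensitive SNAT2 carrier, went from 257 and 252 to 168 and 176 (−0.56, SE 0.13, and −0.22, not called, with the length offset).

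Slc7a11, the cystine carrier xCT, whose principal transcript is 9223 nt, fell by 0.74 on the log2 scale without the length offset and stood at −0.11, not called, with it. Its heavy chain Slc3a2, which it shares with the leucine carrier Slc7a5, gave −0.01, and Slc7a5 gave −0.20, neither called. Slc1a4, the ASCT1 carrier of serine and other small neutral amino acids, was the only transporter of the 7 that rose, from 76.5 and 75.8 CPM to 111 and 135 (0.69, SE 0.19).

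The tRNA synthetases, which load amino acids on tRNA, also differed from one another. Nars, for asparagine, stood at 233 and 372 CPM with vehicle and at 1140 and 1169 with TGFβ1, a log2 fold change of 1.93 (SE 0.37, edgeR adjusted p = 0.00133) that was 2.01 with the length offset. Sars, for serine, rose from 166 and 205 to 296 and 295 (0.67, SE 0.24). Gars, for glycine, fell from 401 and 419 to 284 and 329 (−0.42, SE 0.13).

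Aars, Wars and Eprs were not called at 0.17, −0.10 and −0.38, and Wars fell with the length offset (−0.34). Exons of Aars overlap those of a neighbour on the same strand over 14.3% of their length, and those of Psph overlap a gene on the other strand over 10.4%, so reads there may be split.

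Of the 25 TGFβ1 calls 16 held in all 7 fits that left out 1 library, among them Atf4, Atf3, Nupr1, Fgf21, Gdf15, Stc2, Vldlr, Nars, Psat1, Phgdh, Cth and Slc7a1. Without vehicle replicate 1 the calls of Chac1 (0.39), Shmt2 (0.36), Mthfd2 (−0.44), Slc1a4 (0.65), Cbs (−2.44), Sesn2 (−0.46), Gars (−0.50) and Sars (0.48) were lost. Without vehicle replicate 2 those of Chac1 (0.38), Shmt2 (0.51), Mthfd2 (−0.52), Mthfd1l (−0.26), Slc1a4 (0.68), Gars (−0.39) and Sars (0.83) were. Without TGFβ1 replicate 1 those of Shmt2 (0.42), Mthfd2 (−0.52), Mthfd1l (−0.32), Sesn2 (−0.42), Gars (−0.32) and Sars (0.67) were lost, and without TGFβ1 replicate 3 those of Mthfd2 (−0.39), Mthfd1l (−0.41), Slc1a4 (0.55) and Sars (0.68). In that last fit Psph passed at 0.76 and Atf5 at −0.40. Mthfd2 (−0.46) and Mthfd1l (−0.37) also lost their calls without BMP2 replicate 2 or 3, and without BMP2 replicate 1 Atf5 (−0.29) and Eprs (−0.38) gained one.

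**Figure D3:**
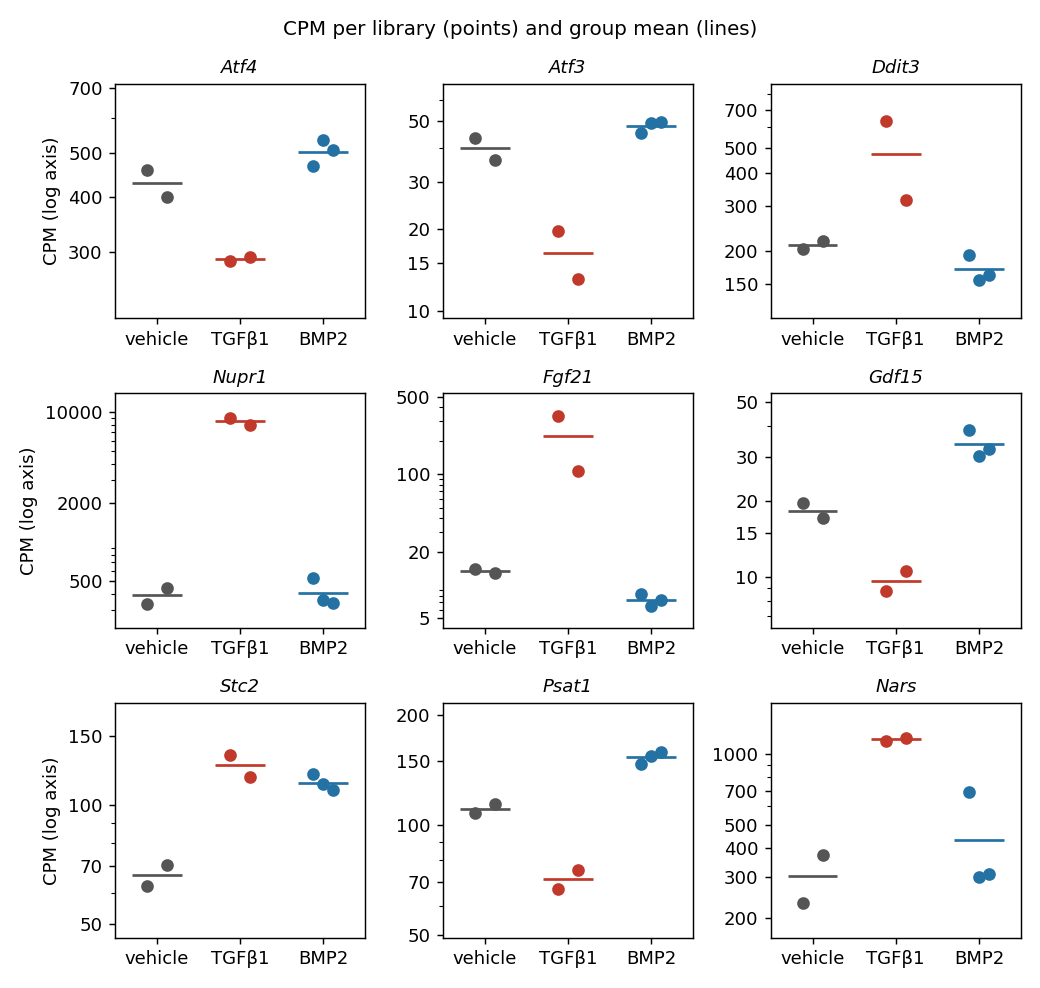
CPM of 9 of the genes in each library (points) with the group mean (lines), on a log axis in each panel, for vehicle (2 libraries), TGFβ1 (2) and BMP2 (3). Atf4, Atf3, Gdf15 and Psat1 are lowest with TGFβ1, Nupr1, Fgf21 and Nars are highest with it, Stc2 is above vehicle in both treated groups, and the higher Ddit3 points with TGFβ1 turn to a fall of 1.46 on the log2 scale with the length offset.

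BMP2 changed fewer of the genes and raised those that it changed. Against vehicle 8 of the 36 rose, 0 fell and 28 did not pass edgeR, where 5.33% of all tested genes rose and 6.15% fell (11.5% in all). At an unadjusted p under 0.05 in edgeR 17 of the 36 passed, beside 25.1% of all tested genes. The median log2 fold change was 0.27 over the list and 0 over all genes, and 28 of the 36 values were above 0 beside 50% of all genes. The length offset gave 11 that rose and 0 that fell, median 0.32, where 6.89% rose and 6.35% fell (13.2% in all). DESeq2 called 10 that rose and 0 that fell, and fits without a filter on low counts, with only the libraries compared or without either TGFβ1 library called 1 that fell, Fgf21.

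The largest rises were those of the secreted factors. Gdf15 (chr8:70629393-70632456) stood at 19.7 and 17.2 CPM with vehicle and at 38.6, 30.4 and 32.4 with BMP2. The log2 fold change was 0.88 (SE 0.15, edgeR adjusted p = 0.00428). Stc2 (chr11:31357307-31370074) stood at 62.3 and 70.6 with vehicle and at 120, 113 and 109 with BMP2, a change of 0.78 (SE 0.12, edgeR adjusted p = 0.00226). All 3 BMP2 libraries lay above both vehicle libraries for each gene, which describes the values behind the calls.

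The other secreted factor, Fgf21, stood lower with BMP2, at 8.32, 6.50 and 7.34 CPM against 13.9 and 12.8. Its log2 fold change of −0.84 (SE 0.44) was not called at an edgeR adjusted p of 0.272. It was called without TGFβ1 replicate 1 (adjusted p = 0.00516) and without TGFβ1 replicate 3 (0.00402), libraries that are not part of the comparison and that share the estimate of spread, and over all alternatives the adjusted p ran from 0.00014, without a filter on low counts, to 0.52, without vehicle replicate 1. Vldlr stood at 289, 299 and 278 against 218 in both vehicle libraries, groups that do not overlap, and just missed the threshold at 0.41 (edgeR adjusted p = 0.0529). With the length offset Vldlr rose by 0.47.

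Serine and one-carbon enzymes gave 3 of the 8 rises. Psat1 (chr19:15904678-15947337) stood at 147, 155 and 159 CPM against 108 and 114 (log2 fold change 0.47, SE 0.11). Shmt2 stood at 229, 192 and 194 against 141 and 152 (0.48, SE 0.12). Mthfd1l (chr10:3973118-4167081) stood at 101, 85.5 and 80.6 against 54.8 and 63.2 (0.60, SE 0.13).

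For each of these 3 enzymes every BMP2 library lay above both vehicle libraries, which describes the values behind the calls. Mthfd2, at 356, 508 and 500 CPM against 344 and 316, was lowest in BMP2 replicate 1 of its group: it was not called at 0.46 over all libraries (edgeR adjusted p = 0.0999) and rose by 0.61 without that replicate (adjusted p = 0.00393). Phgdh and Psph gave 0.36 and 0.56, not called.

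Asns and Cth rose among the asparagine, proline and sulphur enzymes. Asns (chr6:7675169-7693254) stood at 329, 285 and 277 CPM against 212 and 230, a log2 fold change of 0.43 (SE 0.12) that passed narrowly at an edgeR adjusted p of 0.0496 and missed with the length offset at 0.0532. Cth (chr3:157894248-157925077) stood at 76.3, 71.3 and 67.5 against 49.5 and 49.9 (0.53, SE 0.11). Aldh18a1 and Pycr1 gave 0.28 and 0.19, not called. Cbs had 13, 6 and 9 counts, a rate ratio to vehicle of 0.619 with an exact 95% interval of 0.346 to 1.12.

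Slc7a1 (chr5:148327410-148399904) was the transporter that rose, at 240, 274 and 275 CPM against 206 and 183 (log2 fold change 0.43, SE 0.12). Slc7a5 stood at 436 in BMP2 replicate 1 and at 283 and 263 in the others against 239 and 273 with vehicle (0.36, not called). The remaining 5 transporters lay between −0.16 (Slc1a5) and 0.28 (Slc3a2).

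None of the 6 tRNA synthetases and none of the 8 stress regulators passed the test, where 11.5% of all tested genes were called. Groups of 6 and 8 genes are too small to read a departure from that share. Nars stood at 688 CPM in BMP2 replicate 1, and at 299 and 310 in the others, within the vehicle values of 233 and 372, so its 0.52 rested on 1 library, was 0.01 without it, and was called only in the fit without a filter on low counts (adjusted p = 0.00337). Gars, at 591, 539 and 520 against 401 and 419, missed at an adjusted p of 0.0527 (0.42). With the length offset Gars rose (0.45, edgeR adjusted p = 0.0311).

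Atf4 stood at 468, 535 and 510 CPM with BMP2 against 458 and 400. Its log2 fold change was 0.23 with a 95% interval of −0.04 to 0.50 (edgeR adjusted p = 0.272), so a rise of the size of that of Asns lies within the interval. Ddit3 gave −0.31, Atf5 −0.31, Trib3 −0.21 and Nupr1 0.07, and Nupr1 lay at 344 to 528 CPM beside 337 and 443. Psat1, Shmt2, Mthfd1l, Asns and Cth were called in a comparison in which no change of Atf4, Atf3 or Ddit3 RNA was.

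The BMP2 calls were sensitive to single libraries, and Stc2 alone held in all 7 fits that left out 1 library (0.70 to 0.87). Gdf15 held in 6 of 7 and was 0.79 without vehicle replicate 2. Without vehicle replicate 1 the calls of Asns (0.38), Psat1 (0.43), Shmt2 (0.43), Mthfd1l (0.50), Slc7a1 (0.52) and Cth (0.53) were lost, and without vehicle replicate 2 also those of Asns (0.49), Psat1 (0.51), Shmt2 (0.54), Mthfd1l (0.70), Slc7a1 (0.35) and Cth (0.54). Without BMP2 replicate 2 those of Asns (0.46), Psat1 (0.46), Shmt2 (0.53) and Slc7a1 (0.40) were lost, and without BMP2 replicate 3 the same 4 (0.48, 0.44, 0.52 and 0.40). Without BMP2 replicate 1 all 8 were called, with Mthfd2 (0.61), Vldlr (0.40) and Gars (0.37) in addition. Without either TGFβ1 library Psph (0.56), Vldlr (0.41) and Gars (0.42) passed as well. The values moved little while the calls came and went.

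**Figure D4:**
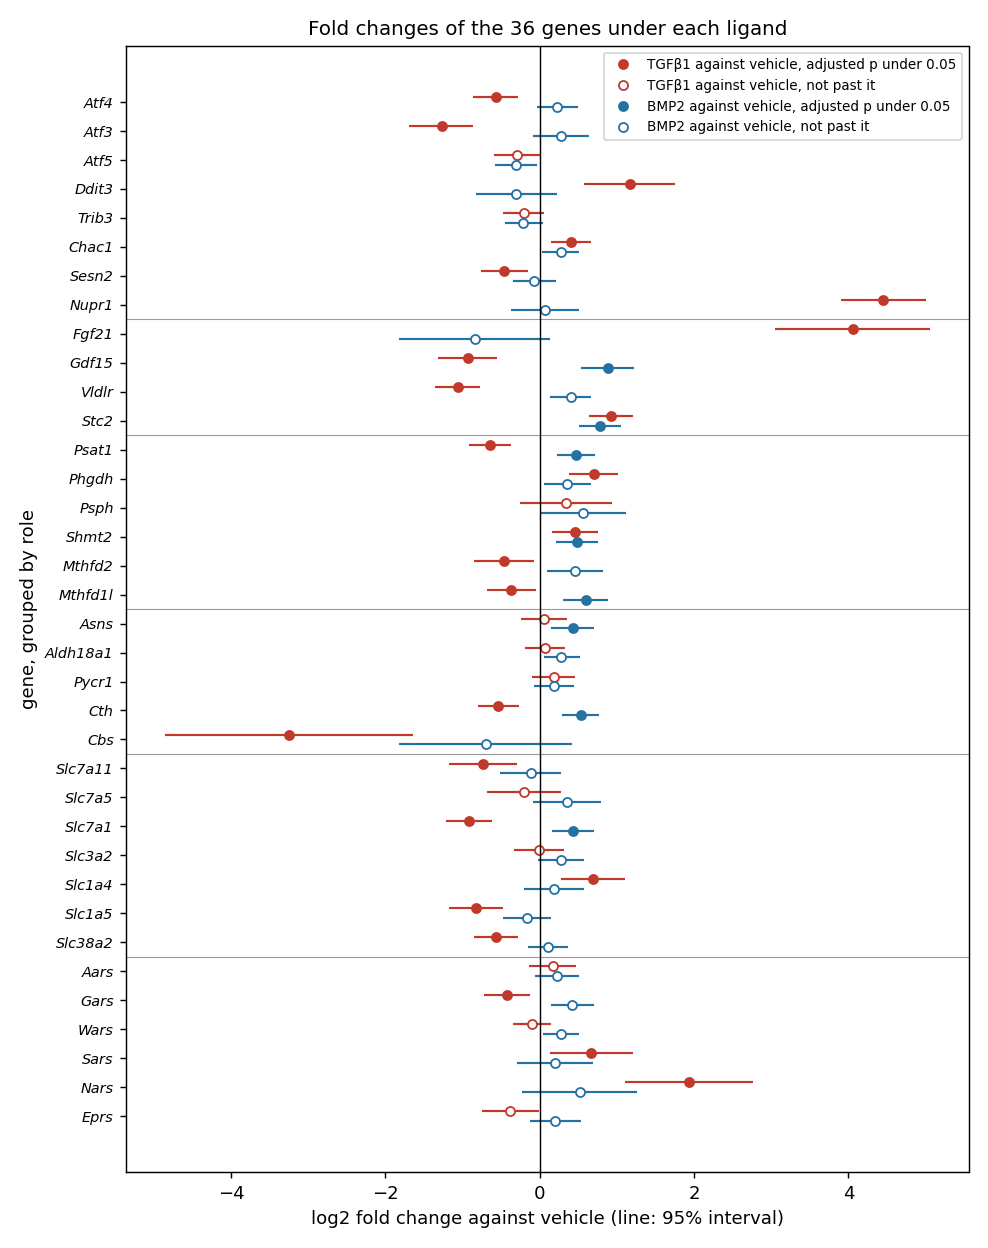
Log2 fold change against vehicle (horizontal axis) of the 36 genes with TGFβ1 (red) and BMP2 (blue); lines are 95% intervals and filled circles passed an adjusted p of 0.05. With BMP2 the filled circles all lie above 0, with TGFβ1 they lie on both sides, and the filled red circles of Ddit3 and Chac1 change sign with the length offset.

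Set directly against each other, 19 of the 36 genes were higher with BMP2 than with TGFβ1 and 6 were lower, where 28.1% of all tested genes were higher and 33.3% lower (61.4% in all). The median log2 difference was 0.38 over the list and −0.02 over all genes, and 25 of 36 values were above 0 beside 49% of all genes. With the length offset 25 were higher and 4 lower, median 0.48, where 27.6% were higher and 28.2% lower (55.8% in all).

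The largest differences toward BMP2 with ample counts were Gdf15 at 1.81 (SE 0.16), Atf3 at 1.54 (SE 0.17), Vldlr at 1.46 (SE 0.12) and Slc7a1 at 1.35 (SE 0.13). Psat1 (1.11), Cth (1.07), Mthfd1l (0.96), Mthfd2 (0.92), Gars (0.85) and Atf4 (0.80) followed. Gdf15 stood at 30.4 to 38.6 CPM with BMP2 and at 8.75 and 10.5 with TGFβ1, and Atf4 at 468 to 535 and at 286 and 292, without overlap. These differences kept their direction and their calls with the length offset, at 2.31 for Gdf15, 1.75 for Atf3 and 1.16 for Atf4.

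The genes lower with BMP2 were Fgf21 (−4.90, SE 0.40), Nupr1 (−4.38, SE 0.21), Ddit3 (−1.47, SE 0.23, but 1.23 with the length offset), Nars (−1.42, SE 0.33), Slc1a4 (−0.51, SE 0.17) and Phgdh (−0.34, SE 0.13, but 0.06, not called, with the length offset). Fgf21 and Nupr1 stayed lower with the length offset, at −2.47 and −1.49. Stc2, at 120, 113 and 109 CPM with BMP2 and 134 and 118 with TGFβ1, was not called, with a difference of −0.15 and a 95% interval of −0.40 to 0.11. Shmt2 was not called either (0.02, interval −0.25 to 0.29), but was higher with BMP2 with the length offset (0.34, edgeR adjusted p = 0.0204). Asns was higher with BMP2 in both fits, at 0.38 and 0.37.

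Of the 25 calls between the ligands 18 held in all 7 fits that left out 1 library. Phgdh lost its call without vehicle replicate 1 or 2, BMP2 replicate 2 or 3 or TGFβ1 replicate 1 (−0.34 to −0.27) and Slc1a4 without BMP2 replicate 2 (−0.39) or 3 (−0.43), TGFβ1 replicate 3 (−0.37) or vehicle replicate 1 (−0.46). Without TGFβ1 replicate 1 Asns (0.35), Slc7a5 (0.50), Cbs (1.96) and Sesn2 (0.35) were lost and Psph (0.80) gained, and without TGFβ1 replicate 3 Slc7a11 (0.58) and Slc7a5 (0.60) were lost. Without BMP2 replicate 1 Sars passed at −0.78. Ddit3 lay between −1.89 and −0.89 in these fits, at −0.89 without TGFβ1 replicate 1. All of them were made without the length offset. With the offset over all libraries Ddit3 stood at 1.23, and Eprs, also among the 18, stood at 0.30, not called.

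By promoter letters, the 9 genes with TGATGCAA held 4 that rose with TGFβ1 (Chac1, Fgf21, Slc1a4 and Nupr1), 3 that fell (Atf3, Slc7a11 and Vldlr) and 2 not called (Pycr1 and Aars). Chac1 and Slc7a11 were not called with the length offset, and Chac1 then stood below 0. With BMP2 0 of the 9 passed edgeR without the length offset, the closest being Vldlr. With the offset Vldlr rose (0.47, edgeR adjusted p = 0.0165). Such counts stand beside 56.2% of all tested genes called with TGFβ1 and 11.5% with BMP2, and 9 genes are too few to read a departure from either. Of the 8 genes that rose with BMP2, Asns had TGATGAAA, 6 had no TGATGNAA in the window, and Cth had no window here. Genes that share the letters thus stood on both sides of 0, and no test was made of the letters against the response.

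The wider pathway was read from lists written with earlier results of these data known. The counts of every list stand beside the same shares of all tested genes, 30.4% that rose and 25.8% that fell with TGFβ1, 5.33% and 6.15% with BMP2, and 28.1% higher and 33.3% lower with BMP2 than with TGFβ1. Of 9 tested genes for the eIF2α kinases, their phosphatase subunits and eIF2 itself, 2 rose and 3 fell with TGFβ1, a share near that of all genes, and 0 changed with BMP2 in edgeR. Eif2s1, which encodes eIF2α, rose by 0.53, and Impact and Eif2ak1, a brake on GCN2 and the haem-regulated kinase, fell by 0.52 and by 0.38 on the log2 scale. Impact and Eif2ak1 were not called with the length offset (−0.27 and −0.14), where 1 of the 9 rose and 1 fell. Eif2ak4, which encodes GCN2, was not called against vehicle with either ligand and was 0.75 higher with BMP2 than with TGFβ1.

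Of 18 tested ATF4 partners and further targets, 5 rose and 7 fell with TGFβ1, and 6 rose and 0 fell with BMP2 (median 0.22). Cebpb, a dimer partner, fell from 34.6 and 33.1 CPM to 13.2 and 15.1 with TGFβ1 (−1.26) and was not called with BMP2 (0.11). Jdp2, a bZIP repressor, fell with TGFβ1 (−1.15) and rose with BMP2 (0.64). Ero1l, an oxidase of disulphide formation, did likewise (−1.20 and 0.57). Vegfa, an angiogenic factor, rose with BMP2 (1.05) and was not called with TGFβ1 (0.25), where the length offset gave −2.85. That offset took a principal transcript of 654 nt for Vegfa, whose annotated exons together cover 4285 nt, so the value depends on the length given. Its level was 46.8 and 48.6 CPM with vehicle and 51.9 and 61.4 with TGFβ1. Got1, an aspartate aminotransferase, rose with BMP2 by 0.57. The largest log2 fold change of the list with TGFβ1 without the length offset was a rise, that of Eif4ebp1, a translation repressor named after its values were seen, from 210 and 205 CPM to 1209 and 606 (2.13, and 2.08 with the length offset). Both comparisons share the vehicle libraries. Of these 18 genes 11 were higher and 4 lower with BMP2 than with TGFβ1.

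Of the other 14 cytosolic tRNA synthetases 7 rose and 2 fell with TGFβ1 (4 and 2 with the length offset), and 2 rose with BMP2. Lars stood at 639 and 432 CPM with TGFβ1 against 165 and 197 (1.56), Tars at 348 and 287 against 110 and 115 (1.5), and Qars at 41.1 and 41.8 against 17.5 and 18.9 (1.19). These 3 remained high with the length offset, at 1.79, 1.73 and 1.10. With BMP2 Hars rose by 0.62 and Farsb by 0.44. As with the 6 synthetases of the main list, single synthetases rose with TGFβ1 while others fell.

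Of 17 mitochondrial synthetases 2 rose and 5 fell with TGFβ1 (0 and 3 with the length offset), led by Lars2 (−0.79), Fars2 (0.68, not called with the offset) and Ears2 (−0.85), and 0 changed with BMP2 in edgeR. Lars2 stood at 46325 to 93463 CPM in the 7 libraries and the other 16 at 0.858 to 31.2, so its value cannot be read as that of an ordinary synthetase messenger RNA without a check of where its reads lie, which was not made. Among 14 tested further amino acid enzymes 2 rose and 6 fell with TGFβ1 and 0 changed with BMP2. Gclc, of glutathione synthesis, fell by 0.82 on the log2 scale. Pycrl, a proline enzyme, rose by 1.5 without and stood at 0.71 with the length offset. Between the ligands 9 of the 14 were higher and 2 lower with BMP2.

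Genes of other stress pathways give the list its setting. Of 10 genes of the IRE1 and ATF6 arms and the endoplasmic reticulum chaperones, 0 rose and 3 fell with TGFβ1, and 1 rose with BMP2. That gene was Dnajb9, a co-chaperone that XBP1 induces, at 60.4 and 61.8 CPM with vehicle, 23.5 and 28.6 with TGFβ1 (−1.23) and 93.9, 100 and 102 with BMP2 (0.69). Ern1, which encodes IRE1, and Sdf2l1, a chaperone cofactor, fell with TGFβ1 (−1.47 and −0.51), and Sdf2l1 stood at −1.99 with the length offset. Over the 10 genes that offset gave 3 that rose and 3 that fell. Of 5 NRF2 targets 2 fell with TGFβ1, Nqo1 (−1.41) and Hmox1 (−0.56), and 0 changed with BMP2 in edgeR.

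Of 5 p53 targets 2 rose and 3 fell with TGFβ1. Cdkn1a, which encodes the cell cycle inhibitor p21, rose with both ligands (2.32 and 0.82), and Sesn1, a relative of Sesn2, fell with both (−1.82 and −0.53). Bax rose by 3.21 with TGFβ1, a value that was 0.47 with the length offset.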

How the data were processed

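The genes and all lists were chosen with earlier results of these data known. The authors deposited raw counts per gene name with a gene length. The tools named, per the submitters' processing notes, are featureCounts, Subread, STAR 2.4.2a, cutadapt and DESeq2, and the build is mm10. For annotation, strand and multi-mapping, settings are not given here. Totals per library ranged from 6747997 to 18047765 counts.

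Counts were fitted with edgeR 4.0.16 in R 4.3.3 (filterByExpr, TMM, quasi-likelihood, 1 coefficient per group over 7 libraries, 4 residual degrees of freedom, common biological coefficient of variation 0.133). Each comparison was tested 2-sided with Benjamini-Hochberg adjustment over 13367 genes at 0.05. All 36 genes are named; of each other list, those of the 3 with the smallest p in the comparison described. CPM use TMM-scaled library sizes.

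The length offset is a per-library lowess of log2 CPM (prior count 1) on principal transcript length (span 0.15) and GC content (span 0.3), over 3 rounds, from GENCODE M21, for 13229 genes. Its version from deposited lengths and its fits without a TGFβ1 library were added after the data were seen. Alternatives were DESeq2 1.42.0, other scaling, no filter, fewer libraries and a replicate block. The scripts were tested on simulated data. Promoter windows are from RefSeq. One gene of the other lists and 1 promoter window are not reported here.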

Additional observations from a re-analysis of the deposited data

How the results depend on the processing

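Depth limits Cbs, with 1 to 17 counts per library, and 2 or 3 libraries per group limit small changes. Same-numbered libraries of different groups did not deviate together (correlations −0.14 to 0). With 2 or 3 libraries per group the deviations depend on each other, so this cannot show whether the numbers pair samples. With the replicate block the members that rose were 6 (TGFβ1) and 2 (BMP2), and genes called with BMP2 were 354 up and 417 down. With the length offset and replicate block these were 5, 3, 475 and 443, 2649 genes rose with TGFβ1, and 3 members were lower with BMP2 than TGFβ1. With the length offset but without TGFβ1 replicate 1 or 3, 5 members rose with TGFβ1, and without replicate 3, 3 were lower with BMP2 than TGFβ1. 1 member fell with BMP2 (Fgf21) without the filter, with only the libraries compared, and with the offset without either TGFβ1 library. Upper-quartile factors shifted the median of all genes to −0.20 (TGFβ1) and 0.14 (BMP2 against TGFβ1), with 3498 genes up and 4587 down for TGFβ1, 654 and 898 for BMP2, and 4628 and 3919 between them.

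Leaving out 1 library, members that rose ranged from 6 to 10 with TGFβ1 and from 1 to 11 with BMP2, those that fell with BMP2 from 0 to 1, and genes that rose and fell with BMP2 from 245 to 810 and from 312 to 891.

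Directions that reversed were, for TGFβ1 against vehicle, Ddit3 with the length offset (−1.46), with the block too (−1.41) and without TGFβ1 replicate 1 or 3 (−1.70 and −1.20), and Chac1 (−0.05, −0.06, −0.02 and −0.11, and −0.17 from deposited lengths). For BMP2 against TGFβ1 they were Ddit3 (1.23, 1.25 with the block, 1.47 and 0.98), Chac1 (0.37, 0.32 and 0.41, and 0.47 from deposited lengths), Phgdh (0.06, 0.07 with the block, 0.08 and 0), Trib3 (0.38, 0.41 without replicate 1, and 0.33), Atf5 (0.34, 0.45 without replicate 3, and 0.38) and Slc7a11 (−0.05 without replicate 3). Over all libraries without the offset, Trib3 (0), Atf5 (−0.02) and Chac1 (−0.14) were not called in that comparison. They thus had no called direction to reverse there. Beyond the offset itself the cause was not tested.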
